A study of Mus musculus with 2 samples.

Results

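Non-homologous end joining, which rejoins the 2 ends of a broken chromosome without a template, was examined in NIH3T3 cells, an established mouse fibroblast line, through the transcripts of its 9 core genes: Nhej1, Xrcc4, Lig4, Xrcc5, Xrcc6, Prkdc, Dclre1c, Poll and Polm. All 9 were found by symbol among the 22838 genes of the deposited table. The set was chosen on measured values, because Nhej1 was among the genes with the lowest ratio of treated to untreated expression in these same libraries, and the other 8 were taken as the rest of its pathway. The low value of Nhej1 is therefore a description and supports nothing by itself.

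The series holds 1 library from untreated cells and 1 from cells exposed for 16 h to ALA at 100 µM. ALA is not spelled out in the labels. In studies of heme it stands for δ-aminolevulinic acid, the first committed precursor of heme. Both groups are the same cell line with no genetic change named in the labels. Since each group is a single library, differences could not be checked against replicates and are reported without p-values. The RNA is from bulk cells, so fewer expressing cells and less RNA per cell cannot be told apart.

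In this pathway the Ku heterodimer, encoded by Xrcc6 and Xrcc5, slides onto a broken DNA end and recruits the kinase DNA-PKcs, encoded by Prkdc. The nuclease Artemis, encoded by Dclre1c, trims ends that cannot be joined directly, and the polymerases lambda and mu, encoded by Poll and Polm, fill gaps. Ligase IV, encoded by Lig4, seals the break in a complex with its scaffold XRCC4, and XLF, the product of Nhej1, binds XRCC4 and helps to hold the ends together. The pathway is not limited to a single phase of the cell cycle, and lymphocytes also use it to assemble antigen receptor genes.

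A few promoters are shown because they belong to the genes with the lowest ratios, Nhej1 and Dclre1c, and to Xrcc4, whose product is the direct partner of XLF. Each runs from 250 bases before to 50 bases after the RefSeq gene start on build GRCm38.p6 and is written in the direction of transcription. Capitals mark GC boxes (GGGCGG) and CCAAT boxes (CCAAT), searched on both strands. The Nhej1 window lies at chr1:75125177-75125476 on the minus strand, that of Dclre1c at chr2:3423881-3424180 on the plus strand, and that of Xrcc4 at chr13:90089559-90089858 on the minus strand.
Nhej1: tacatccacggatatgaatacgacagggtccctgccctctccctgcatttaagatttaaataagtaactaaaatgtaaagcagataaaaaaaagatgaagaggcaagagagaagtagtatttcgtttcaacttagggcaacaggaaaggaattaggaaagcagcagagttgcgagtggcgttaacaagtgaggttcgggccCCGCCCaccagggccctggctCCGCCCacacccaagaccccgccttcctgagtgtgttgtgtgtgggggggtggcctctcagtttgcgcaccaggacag
Dclre1c: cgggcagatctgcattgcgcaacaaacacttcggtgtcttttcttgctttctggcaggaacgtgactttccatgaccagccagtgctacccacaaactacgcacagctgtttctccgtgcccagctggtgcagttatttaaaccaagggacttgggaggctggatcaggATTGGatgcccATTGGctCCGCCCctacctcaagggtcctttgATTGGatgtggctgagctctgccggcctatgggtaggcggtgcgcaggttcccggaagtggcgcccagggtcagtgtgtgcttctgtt
Xrcc4: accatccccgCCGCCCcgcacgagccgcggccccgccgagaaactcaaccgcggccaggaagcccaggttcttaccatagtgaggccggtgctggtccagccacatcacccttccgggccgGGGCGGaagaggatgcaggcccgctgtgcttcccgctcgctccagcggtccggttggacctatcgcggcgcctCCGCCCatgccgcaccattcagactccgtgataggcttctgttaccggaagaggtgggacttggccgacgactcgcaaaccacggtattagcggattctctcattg

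The Nhej1 window held 2 GC boxes and 0 CCAAT boxes, with 50.7% G and C and 10 CpG dinucleotides. The Dclre1c window held 1 GC box and 3 CCAAT boxes, with 56.3% G and C and 12 CpG. The Xrcc4 window was richer, with 65.7% G and C, 31 CpG, 3 GC boxes and 0 CCAAT boxes. Over all 32851 mouse promoter windows of that table, the median was 52.7% G and C and 7 CpG, 35.7% held a GC box and 37.4% a CCAAT box. Nhej1 and Xrcc4 had no match to the antioxidant core TGACNNNGC, to AGGTCA, which REV-ERB and ROR receptors bind, to the E-box CACGTG or to the HIF core ACGTG, which the E-box contains. Dclre1c had 1 match, to the HIF core. These motifs occurred in 12.4%, 16.3%, 7.15% and 19.6% of all windows. Of the 9 genes, 7 matched the promoter table with 8 windows. Poll and Prkdc did not. Of the windows not printed, that of Polm had 1 match to the antioxidant core, and that of Xrcc5 had 1 to the E-box. The 2 matches of Xrcc5 to the HIF core, 1 on each strand, both lie in that E-box. Those of Lig4 and Xrcc6 had no match to the antioxidant core, AGGTCA, the E-box or the HIF core.

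The Nhej1 row of the deposited table covers chr1:74967346-75046639 (build mm10). The RefSeq gene begins 78587 bases further upstream of that row, next to Slc23a3, so the promoter above is that of a first exon outside the model behind the FPKM value. In the GENCODE annotation of the same assembly, Nhej1 is on the minus strand with a protein-coding transcript of 1053 bases in 5 exons and a separate short non-coding transcript at the distal start. None of its exon bases overlap another annotated gene. None of its 1038 distinct stretches of 41 bases, the read length, occur in a transcript of another gene, counting exact matches only.

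XLF helps to hold the ends together, and its gene had the lowest ratio of the 9. Nhej1 was at 11.1 FPKM (fragments per kilobase of transcript, scaled to the sequencing depth, so a level per length) in the untreated library and at 2.62 FPKM in the ALA library. The ALA level was 23.6% of the untreated level, which is a 4.24-fold lower value. Depth, estimated from the steps between low values, was about 21900000 reads in the untreated and 31200000 in the ALA library, so these levels stand for about 256 and 86.1 reads. The approximate 95% counting interval of the percentage is 18.5% to 30.1%. It covers counting error only and not the spread between cultures.

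On the scale used for all comparisons between genes, log2((ALA FPKM + 1)/(untreated FPKM + 1)), Nhej1 was at -1.74. Genes called at least 1.5-fold or 2-fold apart are counted on this scale. That is rank 33 from the lowest among the 10929 measured genes, those with a mean of at least 1 FPKM over both libraries. All 9 members were measured. Of the 2038 measured genes with a mean from 5 to below 10 FPKM, the range that holds Nhej1, 5 had a log2 ratio as low, Nhej1 included. The middle 95% of log2 ratios in that range ran from -0.99 to 0.83. The range is set by FPKM and not by the number of reads. Nhej1 had the shortest transcript of the 9 members, at 1053 bases, and the fewest reads in both libraries. Nhej1 was the only member at least 2-fold lower, and 0 members were 2-fold higher, where 2.01% and 1.49% of all measured genes were so. Nhej1 was chosen by this contrast, so these shares are given for scale.

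**Figure D1:**
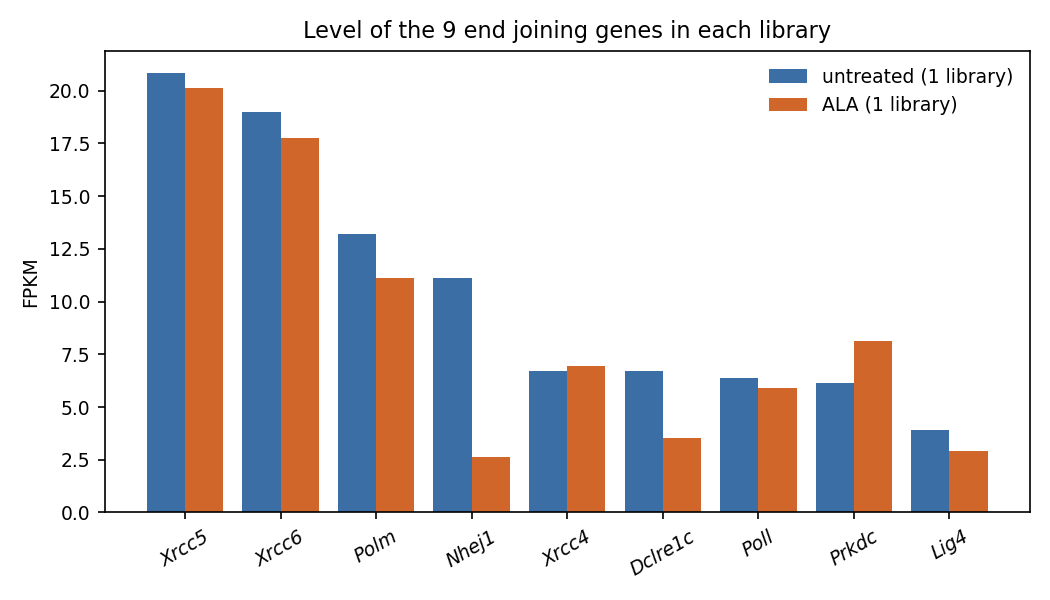
Level of each end joining gene in FPKM (vertical axis) in the untreated (blue) and the ALA (orange) library, 1 bar per library and gene, ordered by the untreated level. Nhej1 is at 11.1 and 2.62 FPKM, while the Ku genes Xrcc5 and Xrcc6 lie between 17.8 and 20.9 FPKM.

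The order of levels differed between the libraries mainly through Nhej1 and Prkdc. In untreated cells Nhej1 ranked 4 of the 9 by FPKM, behind Xrcc5, Xrcc6 and Polm. With ALA it ranked 9, below Lig4, although the counting interval of Nhej1, 2.095 to 3.23 FPKM, includes the Lig4 level of 2.899 FPKM. In untreated cells Xrcc4, Dclre1c, Poll and Prkdc, from 6.703 to 6.12 FPKM, had overlapping counting intervals, and so had Xrcc5 and Xrcc6. Overlap of separate intervals does not show that levels are equal, and differences between members were not tested. Polm and Nhej1 were close, at 12.3 to 14.1 and 9.78 to 12.5 FPKM. Xrcc5, Xrcc6 and Polm kept ranks 1, 2 and 3, and Prkdc moved from rank 8 to rank 4. Nhej1 made up 11.8% of the summed FPKM of the 9 genes in untreated cells and 3.32% with ALA. The sum of the other 8 was 82.9 FPKM untreated and 76.4 FPKM with ALA.

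Ku recognises the broken end, and its genes had the highest levels of the set. Xrcc5, which encodes Ku80, was at 20.9 FPKM untreated and at 20.1 FPKM with ALA, or 96.5% of the untreated level with a counting interval of 89.5% to 104%. Xrcc6, which encodes Ku70, was at 19.0 FPKM untreated and at 17.8 FPKM with ALA, or 93.4% with an interval of 87.1% to 100.2%. Both intervals include 100%. The proteins form a dimer of equal parts, and the ratio of Xrcc6 to Xrcc5 was 0.912 untreated and 0.883 with ALA. The log2 ratio of Xrcc5 was -0.05 as deposited and 0.03 when the libraries were scaled to equal totals, so its sign depends on the scaling. Of the Xrcc6 exon bases, 7.69% lie in Desi1 on the opposite strand. Desi1 was at 17.4 and 19.2 FPKM.

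DNA-PKcs binds Ku at the end and activates Artemis, and its gene was the member with the highest ratio. Prkdc was at 6.12 FPKM untreated and at 8.14 FPKM with ALA, or 133% of the untreated level. Its long transcript of 12647 bases gave about 1694 and 3211 reads, and the counting interval of 125% to 141% is the narrowest of the 9 on a log scale. The log2 ratio was 0.36, short of 1.5-fold. The ratio of Prkdc to Xrcc5 was 0.293 untreated and 0.405 with ALA.

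Artemis opens hairpins and trims ends, and its gene had the second lowest ratio. Dclre1c was at 6.69 FPKM untreated and at 3.52 FPKM with ALA, or 52.5% of the untreated level with a counting interval of 47.9% to 57.7%. The log2 ratio was -0.77. Dclre1c and Nhej1 were the 2 members at least 1.5-fold lower, where 7.16% of measured genes were so. No member was 1.5-fold higher, where 5.9% of measured genes were so. The kinase gene Prkdc and the nuclease gene Dclre1c, whose products act as a complex, lay on opposite sides of the untreated level, and the ratio of Dclre1c to Prkdc was 1.09 untreated and 0.432 with ALA.

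Dclre1c shares its deposited row position with Suv39h2, a histone H3 lysine methyltransferase gene on the opposite strand. The genes share 357 exon bases, 3.83% of the Dclre1c exon sequence, and no strand setting is given in the sources used here. Suv39h2 was also lower, at 4.09 FPKM untreated and 2.47 FPKM with ALA. The sum of both genes was 10.8 and 5.99 FPKM, or 55.5% of the untreated level. How far reads of each gene enter the value of the other was not tested.

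**Figure D2:**
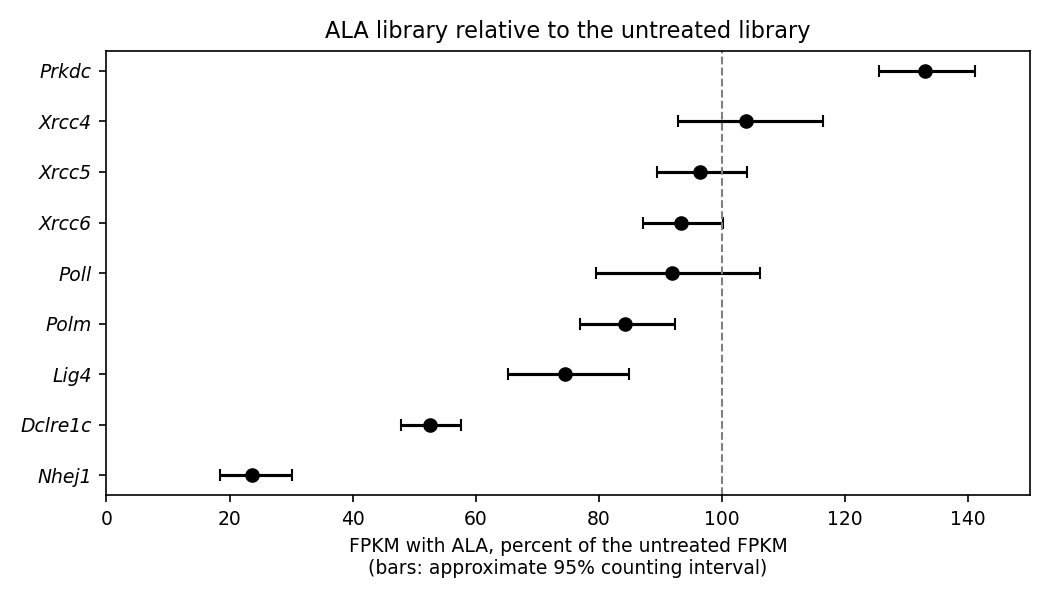
FPKM in the ALA library as a percentage of the untreated FPKM (horizontal axis) for each end joining gene, with bars for the approximate 95% counting interval and a dashed line at 100%. Nhej1 at 23.6% and Dclre1c at 52.5% lie apart from the other 7 genes, which run from 74.5% to 133%.

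The ligase complex did not share the low value of Nhej1. Xrcc4, the scaffold that XLF binds, was at 6.703 FPKM untreated and at 6.97 FPKM with ALA, or 104% with an interval of 92.8% to 116%. Lig4 was at 3.89 FPKM untreated and at 2.899 FPKM with ALA, or 74.5% with an interval of 65.3% to 85.0%. Of the Xrcc4 exon bases, 2.66% lie in Tmem167 on the opposite strand, which was at 10.6 and 10.9 FPKM. The ratio of Nhej1 to Xrcc4 was 1.66 untreated and 0.376 with ALA, so the transcript of XLF was above that of its partner in the untreated library and below it in the other. The ratio of Xrcc4 to Lig4 was 1.72 untreated and 2.404 with ALA.

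The gap-filling polymerases were both slightly lower. Poll, for polymerase lambda, was at 6.40 FPKM untreated and at 5.88 FPKM with ALA, or 91.9% with an interval of 79.6% to 106%. Polm, for polymerase mu, was at 13.2 FPKM untreated and at 11.1 FPKM with ALA, or 84.3% with an interval of 76.9% to 92.3%. The Polm interval lies below 100% and that of Poll includes it. In untreated cells Polm ranked just above Nhej1, with overlapping counting intervals. The ratio of Poll to Polm was 0.485 untreated and 0.529 with ALA.

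Set against the rest of its pathway, Nhej1 lay well below the range of the others. The log2 ratios of the other 8 ran from -0.77 to 0.36 with a median of -0.10, and Nhej1 was 1.64 below that median. Without Dclre1c the other 7 ran from -0.33 to 0.36, with a median of -0.09. Of the 9 members 2 were above 0 and 7 below, where 47.8% and 52.2% of measured genes were. The 7 include Nhej1, which was chosen for its low ratio, and Xrcc5, whose sign depends on the scaling. The counting intervals of Xrcc4, Xrcc5, Xrcc6 and Poll include the untreated level. The median over all 9 was -0.10, beside a median of -0.02 over all measured genes.

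**Figure D3:**
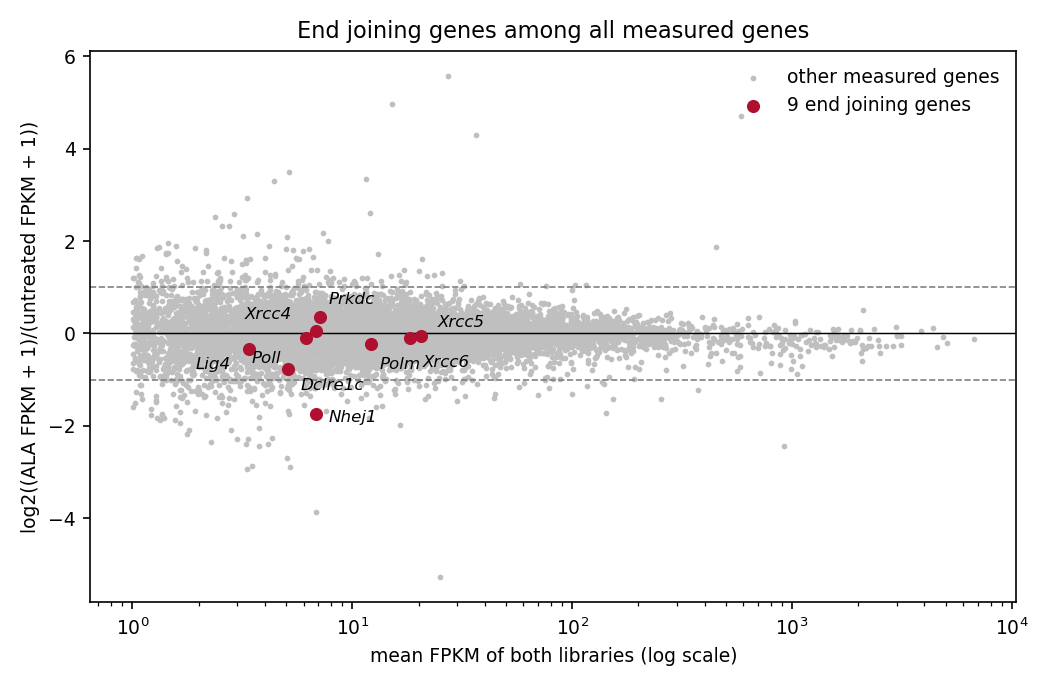
Log2 ratio of ALA to untreated (vertical axis, 1 FPKM added to each value) against the mean FPKM of both libraries (horizontal log axis) for the 10929 measured genes in grey and the 9 end joining genes in red, with dashed lines at 2-fold. Nhej1 at -1.74 is below the middle 95% of genes with a mean of 5 to 10 FPKM, where 4 others are as low, and the other members lie inside the dashed lines.

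Of the 3 nearest genes of the table on either side of Nhej1, only Cnppd1 and Fam134a were measured, and neither had a ratio as low. On one side Ihh, the Indian hedgehog gene, and beyond it Ccdc108 and Cryba2 were listed at 0 in both libraries. On the other side Slc23a3 was listed at 0 untreated and at 0.345 FPKM with ALA, below the 1 FPKM minimum. Next to it Cnppd1 was at 42.8 and 33.3 FPKM, or 77.8%, and Fam134a at 52.6 and 53.7 FPKM, or 102%.

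Distance from Nhej1 was taken in the plane of the log2 levels of both libraries. Measured genes were compared if flagged OK, with a single gene name and no small-RNA name. The 5 nearest of these were taken as the genes with a pattern most like that of Nhej1. With 2 libraries this likeness says only that the levels are similar. They were the pseudogene Spn-ps at 9.50 and 2.61 FPKM, 2310039H08Rik at 12.1 and 3.08 FPKM, 1700019B21Rik at 9.69 and 3.195 FPKM, 2700038G22Rik at 9.15 and 3.16 FPKM, and Nmnat1 at 8.80 and 2.92 FPKM. Nmnat1 encodes a nuclear enzyme of NAD synthesis. None of the 5 is in a repair list used here.

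Accessory factors of end joining went both ways. Of 12 listed genes 9 were measured, 3 above and 6 below 0, where 47.8% and 52.2% of all measured genes were. The median log2 ratio was -0.04 and turned to 0.03 with equal library totals. Paxx, which encodes a structural relative of XRCC4 and XLF that binds Ku and overlaps with XLF in function, was at 6.72 FPKM untreated and at 3.86 FPKM with ALA, or 57.4% with an interval of 46.3% to 71.2%. It was the list's only member at least 1.5-fold lower, where 7.16% of measured genes were so. It is listed as BC029214 in the table and was matched by its position inside the RefSeq gene. Cyren, for a small inhibitor of end joining, was at 2.26 and 3.97 FPKM, and Tdp2, for a phosphodiesterase that frees DNA ends from trapped topoisomerase, at 6.78 and 10.9 FPKM. Both were at least 1.5-fold higher, as were 5.9% of measured genes. Of the 3 related genes, Xrcc4 was at 104%, Paxx at 57.4% and Nhej1 at 23.6% of the untreated level.

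Upstream of the choice of pathway, break sensors and the branch of the adaptor encoded by Trp53bp1, which shields ends from resection, went both ways. All 16 matched genes of the 17 listed were measured, 7 above and 9 below 0, where 47.8% and 52.2% of all measured genes were. The median was -0.02 and turned to 0.05 with equal library totals. Trp53bp1 itself was at 8.71 and 8.82 FPKM. Shld2, a shieldin subunit gene listed as Fam35a, was at 4.26 FPKM untreated and at 2.37 FPKM with ALA, or 55.7%. It was the list's only gene at least 1.5-fold lower, where 7.16% of measured genes were so. Mad2l2, for another shieldin subunit, was at 15.7 and 11.6 FPKM. The ubiquitin ligase gene Rnf8, at 6.81 and 10.3 FPKM, and the checkpoint kinase gene Chek2, at 6.28 and 9.16 FPKM, were higher but under 1.5-fold on the log2 scale with the added 1.

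Alternative end joining, which pairs short homologies, had 6 of 9 measured genes above 0, where 47.8% of all measured genes were, and a median of 0.23. Polq, for its polymerase theta, was at 1.62 FPKM untreated and at 3.53 FPKM with ALA, or 217% with an interval of 191% to 247%. Dna2, for a resection nuclease, was at 1.03 and 2.12 FPKM. Both were at least 1.5-fold higher, where 5.9% of measured genes were so, but both have a mean under 5 FPKM, and over the list's genes at or above that mean the median was 0.12. Parp2, for a poly(ADP-ribose) polymerase, was at 19.5 and 27.0 FPKM. The single-strand break scaffold gene Xrcc1 was the lowest of the list, at 17.4 and 12.9 FPKM.

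Homologous recombination, which copies a sister chromatid, had 11 of 19 measured genes (57.9%) above 0, near the 47.8% of all measured genes, and a median of 0.17. Bard1, for the partner of BRCA1, was at 3.42 and 6.44 FPKM. It was the only gene of that list at least 1.5-fold higher after 1 FPKM was added, where 5.9% of measured genes were so. Xrcc3, another gene of that pathway, was at 1.90 and 3.26 FPKM, a plain ratio of 1.71, and Rpa3, for a subunit of the single-strand binding protein, was the lowest ratio at 95.02 and 66.7 FPKM. Beside these lists, all 10 genes of a cycling list were above 0 with a median of 0.28, among them Mcm5 at 38.8 and 54.1 FPKM, Ccnb1 at 49.2 and 62.8 FPKM and Mki67 at 50.7 and 63.3 FPKM. The part of cell cycle state in these values was not tested. No difference between the lists was tested.

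**Figure D4:**
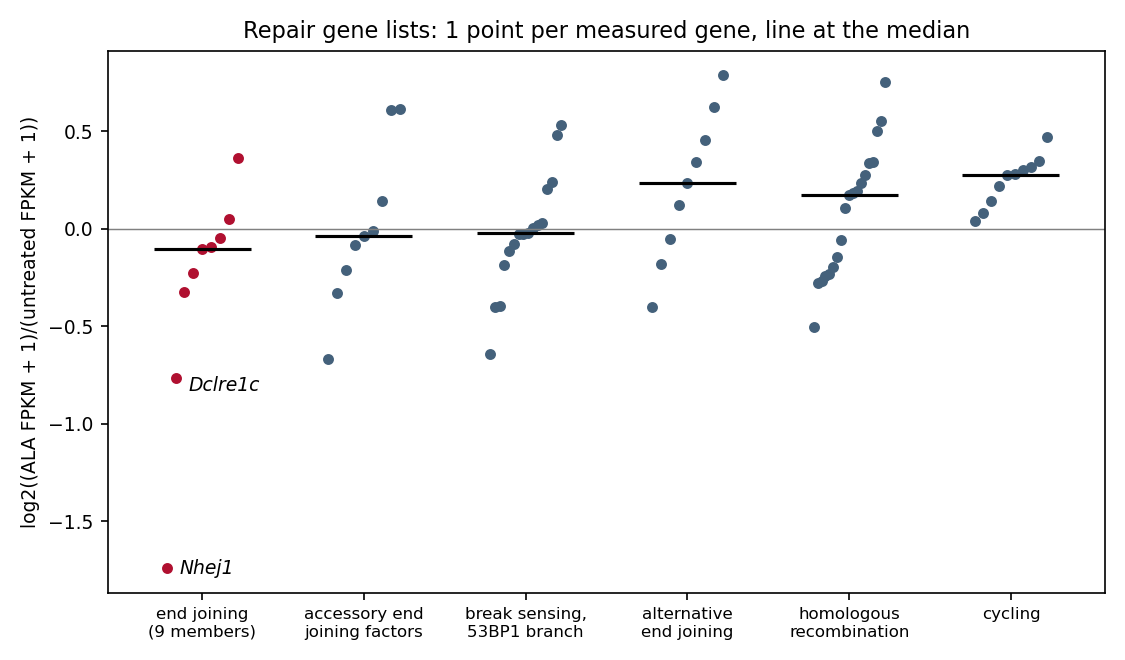
Log2 ratio of ALA to untreated (1 FPKM added) for each measured gene of 6 lists, 1 point per gene with a black line at the list median. Nhej1 at -1.74 and Dclre1c at -0.77 are the lowest points of all 6 lists, and the 10 cycling genes are all above 0.

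The labelled cell type was checked on its markers. All 9 fibroblast markers were measured, from Pdgfrb at 19.7 and 20.97 FPKM to S100a4 at 4976 and 4717 FPKM. Of these, 8 were lower with ALA, where 52.2% of all measured genes were, and the median log2 ratio was -0.26. Thy1, at 60.2 and 38.8 FPKM, and Pdgfra, at 57.6 and 36.6 FPKM, were at least 1.5-fold lower, where 7.16% of measured genes were so. The lymphocyte markers summed to 1.92 FPKM untreated and 4.08 FPKM with ALA over 8 genes, with Cd3e and Rag2 at 0 in both. The lymphoid antigen receptor assembly genes Rag1, Rag2 and Dntt, which act with end joining, were under the 1 FPKM minimum: Rag2 and Dntt were listed at 0 in both libraries and Rag1 at 0.261 and 0.0102 FPKM. Of the other markers, the macrophage gene Cd14 was at 13.1 and 4.69 FPKM and Cd68 at 0.237 and 1.40 FPKM, with Csf1r and Adgre1 under 0.1 FPKM. The epithelial and muscle lists summed to under 2 FPKM in each library. In the adipocyte list Lpl was at 51.3 and 52.3 FPKM, with Adipoq and Fabp4 at 0 in both. The part of these markers in the end joining values was not tested.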

How the data were processed

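Libraries were read as single-end reads of 41 bases, per the labels' protocols. The authors deposited FPKM for each gene, in the layout of a Cufflinks tracking table per the file headers. FastQC 0.11.5, TopHat2 2.1.1, Cufflinks 2.2.1 and build mm10 are named in the submitters' processing notes. Annotation, options, strand setting and scaling of the libraries: not given in the sources used here. The deposited interval bounds were equal in 100% of rows and carry no error.

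Ratios were taken as log2 after 1 FPKM was added, which shrinks the ratio of low genes. Counts of genes at least 1.5-fold or 2-fold apart use that scale, while percentages and the folds of single genes are plain ratios of FPKM. Counts of genes used a minimum mean of 1 FPKM. Depth was fitted on genes with a single GENCODE vM21 transcript of over 1500 bases and values under 0.15 FPKM, as the number of reads that brought FPKM times length nearest to whole numbers. Subtracting 0 to 300 bases from the length gave 21900000 to 24600000 reads untreated and 31200000 to 35200000 with ALA. Reads per gene (FPKM times longest transcript times depth) and intervals are therefore approximate. They use the depth with 0 bases subtracted. Closeness to whole numbers, at most 1, was 0.237 untreated and 0.238 with ALA at that setting, the lowest of those tried. It was 0.279 and 0.250 with 300 bases subtracted. Of 109 list genes 4 were matched by a RefSeq synonym and 1 by position. Shld3 was not analysed here.

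The members, lists and thresholds were chosen with earlier results of these data known. The named genes were the 9 members, up to 3 genes with the largest ratios of each list besides those with a role in a step described, the 3 table neighbours on either side of Nhej1, genes overlapping a member and the 5 genes nearest to Nhej1. The procedure was tested on simulated data with counting error only, so that test says nothing on the spread between cultures. Alternatives were pseudocounts of 0.1 and 5 FPKM, 2 other scalings, and no minimum or one of 5 FPKM. Python 3.11.15, pandas 2.3.3, numpy 2.4.6 and matplotlib 3.10.9 were used.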

Additional observations from a re-analysis of the deposited data

How the results depend on the processing

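No paired analysis was possible because each group had 1 library. The log2 ratio of Nhej1 was -1.08 with a pseudocount of 5 FPKM, and its distance below the median of the other members was then -1.01. With that pseudocount, and also without Dclre1c (chosen after seeing the data), 1 member was at least 1.5-fold apart in place of 2. Scaling to equal totals reversed the sign of Xrcc5 (0.026) and of the medians of the accessory (0.033) and break sensing (0.0500) lists. The share of all genes at least 1.5-fold apart was 4.51% with a pseudocount of 5 FPKM and 8.14% with no minimum, against 13.1%. The share at 2-fold was 6.32% with a pseudocount of 0.1 FPKM, 0.668% with 5 FPKM, 2.15% with no minimum and 1.99% with a minimum of 5 FPKM, against 3.5%. Of the other values recomputed for single genes and lists, 132 moved by no more than the tolerance set (the counting interval for a gene, 0.1 log2 for a list median, 1.5 times for a count) and 17 moved further without a change of sign, mostly counts of 0 to 2 list genes. Summing Dclre1c with Suv39h2 (chosen after seeing the data) left both counts of members as they were. Counting error at the 86.1 reads of Nhej1 with ALA is covered by the interval given, and the spread between cultures was not measured.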
